A study of Rattus norvegicus and Mus musculus with 74 samples.

Results

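Of the 72824 regions in which any of 4 histone marks was found in rat cortex, 849 carried acetylation away from promoters in every control library and H3K4me3 in none. They were selected from the authors' table by 4 conditions: no promoter counted in the region, no CpG island counted in it, an H3K9Ac interval in all 3 control libraries and an H3K4me3 interval in none of the 3 control libraries. An interval is a stretch in which the authors called enrichment of the mark. The table held 54655 regions without a promoter or CpG island, called distal here. The H3K9Ac and H3K4me3 values of the control libraries chose these regions, so every comparison of those 2 marks with control is given as a description, without a test.

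H3K9Ac, acetylation of lysine 9 on histone H3, lies over active promoters and over active enhancers, the distal elements that raise transcription of genes on the same chromosome. H3K4me3, trimethylation of lysine 4, is concentrated at active promoters and CpG islands, while enhancers usually carry less methylated forms of the same lysine. LSD1, encoded by Kdm1a, removes mono- and dimethyl groups from lysine 4 and is found at enhancers and promoters in complexes with histone deacetylases and the corepressors of the Rcor family. H3K27me3 is the mark laid down by Polycomb complexes over repressed developmental genes, and H3K9me3 marks constitutive heterochromatin.

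The samples were frozen brain cortex of Sprague-Dawley rats in 3 groups: healthy rats given vehicle (control), rats exposed to valproate (VPA) by injection before birth and given vehicle, and VPA-exposed rats given TAK-418, an inhibitor of LSD1. The comparison of the exposed groups asks what the inhibitor did to the marks in the exposed cortex. The labels give no dose, age or length of treatment. Each group had 3 libraries for each mark, 36 in all. Whether the 3 libraries of a group are 3 animals is not stated in the labels, and the p-values reflect the spread among libraries alone, part of which may be technical. Cortex holds many cell types, and a lower signal from fewer cells of a type cannot be told apart from less of the mark in each cell.

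The values were a mean signal per region and library with no read counts, so the depth is unknown. Some libraries stood apart. In H3K9Ac, the median signal of the 849 regions was 6.89 and 8.06 in VPA vehicle replicates 1 and 2 and 3.94 in replicate 3. In H3K27me3 the highest median was that of TAK-418 replicate 1, at 2.74, and the lowest that of control replicate 3, at 1.52. How the authors scaled the libraries to each other is not given in the sources used here, and over all 17679 regions tested for H3K9Ac the median log2 difference was 0.78 for VPA vehicle against control, -0.41 for TAK-418 against vehicle and 0.37 for TAK-418 against control. Differences between groups are therefore given as deposited and also relative to the rest of the genome, after subtracting each library's median (median centring) and after quantile normalization.

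The regions were long and mostly inside genes. Their median length was 16599 bp, with quartiles of 10399 and 27399 bp and a range from 799 to 135199 bp. The 1031 distal regions that had H3K9Ac and H3K4me3 intervals in all 3 controls had a median of 7399 bp, and acetylated CpG island promoters (n = 8044) one of 11599 bp. Of the 849 regions, 548 (64.5%) lay in a gene by the table's annotation, which does not tell exons from introns, and 221 (26.0%) were listed with no gene. Among the distal regions with H3K4me3, 34.9% lay in a gene and 54.2% had none listed. The nearest gene start lay a median of 54399.5 bp away (n = 628 regions listed with a gene).

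**Figure D1:**
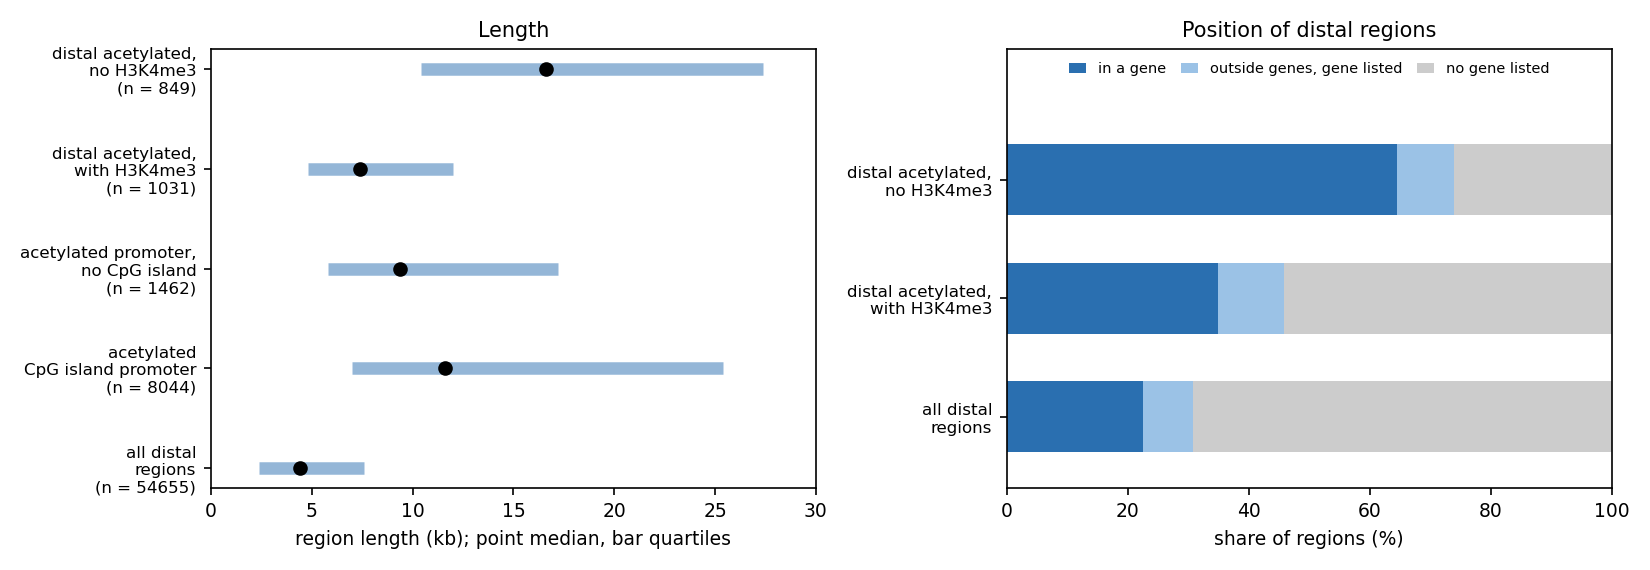
The left panel gives region length in kb (point, median; bar, quartiles) for the 849 regions, for 3 other acetylated classes and for all distal regions, and the right panel gives the share of regions in a gene, near one or with none listed. The 849 regions have the longest median, 16599 bp, of the 5 classes drawn, and the largest share in genes, 64.5%, of the 3 distal classes.

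The highest signal in a region was a median of 3.65 times its mean in the exposed libraries, against 4.80 times in distal regions with H3K4me3, 5.17 times in acetylated promoters without a CpG island and 7.76 times in acetylated CpG island promoters. The ratio was 3.47 in distal regions with H3K9Ac in 2 of 3 controls and 1.96 over all distal regions. The longest region, 135199 bp, lay in Cux1 (chromosome 12, 25201000 to 25336199 on rn5), which encodes a homeodomain factor of upper-layer neurons. The next in length lay in Rbm19, which encodes an RNA-binding protein of ribosome biogenesis, at 128799 bp, and in Chst11, a chondroitin sulfotransferase, at 113799 bp. The gap to the nearest acetylated promoter region had a median of 34401 bp, and 323 regions (38.0%) had one within 20000 bp. In distal regions with H3K4me3 that median was 74401 bp and the share 22.6%. Another of the 849 lay within 20000 bp of 201 of them. They were unevenly spread over chromosomes: they made up 3.62% of the distal regions of chromosome 10 and 3.11% of those of chromosome 12, but 0.468% of those of the X chromosome, where 6 lay.

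These regions were listed with 586 of the 20110 genes of the table. Most of those genes (493) had 1 region, 61 had 2, and 32 had at least 3. Kalrn, which encodes a guanine nucleotide exchange factor of dendritic spines, had the most, 6, between 72609400 and 72993399 on chromosome 11, 41183 to 411283 bp from its start. Its 6 regions had mean H3K9Ac signals of 4.20 to 8.72 over the 6 exposed libraries. Gabbr2, a subunit of the metabotropic GABA receptor, and Msra, a methionine sulfoxide reductase, had 5 each.

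Among 20 markers of excitatory neurons, 5 had a region: Cux1, Cux2, Mef2c, Sv2b and Arpp21. None of 19 markers of inhibitory neurons, 18 of microglia or 13 of striatum had one. The astrocyte list had 1 of 19 (Slc4a4, a bicarbonate transporter), the oligodendrocyte lineage 2 of 19 (Mbp and Mobp, both myelin proteins) and the vascular list 2 of 15 (Vwf, von Willebrand factor, and Erg, an endothelial transcription factor). Over all genes the share was 2.91%. Genes without any distal region could not enter, and of genes with one inside them, 485 of 4776 overall had a region of the 849. The counts were 5 of 10 for excitatory neurons, 2 of 5 for the oligodendrocyte lineage, 2 of 10 for vascular cells, 1 of 7 for astrocytes, 0 of 6 for inhibitory neurons, 0 of 5 for striatum and 0 of 2 for microglia. Acetylated promoter regions were listed with 18 of 20 excitatory, 14 of 19 inhibitory, 19 of 19 astrocyte and 14 of 18 microglial markers.

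Glutamate receptor genes had a region in 5 of 26 (Grin2a, Grin2b, Grin2c, Grik3 and Grik5), voltage-gated channels in 6 of 30 (among them Cacna1a, Cacna1d, Cacna1i and Kcnh1) and synaptic adhesion and scaffold genes in 4 of 28 (Nrxn2, Shank2, Dlgap1 and Iqsec2). Grin2b, an NMDA receptor subunit, had 4 regions, 154428 to 263328 bp from its start. GABA receptors had a region in 1 of 17 genes and synaptic vesicle genes in 1 of 25, Syn3. None of 24 genes induced by neuronal activity had one, nor did any of 93 ribosomal protein genes, 775 olfactory receptor genes or 23 genes of other tissues. Of these 4 lists, in order, 2, 4, 4 and 3 genes had any distal region inside them. Of the LSD1 complex and the enzymes of H3K4 methylation, 1 of 18 genes had a region: Rcor2, a corepressor partner of LSD1, with a region downstream of it that lay in Mark2. Hdac4, a class II deacetylase, was the 1 of 16 acetylation enzymes with a region, and had 3.

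Some of these genes had such regions in mouse cortex as well. The same 4 conditions found 823 of 60110 regions in the mouse table of the series, from control mice of another exposure model. Among 14458 genes named in both tables, 573 (3.96%) were listed with such a mouse region. Of the 517 of these genes listed with a rat region, 205 (39.7%) were. Of 304 that also had an in-gene distal region in both species, 175 (57.6%) were, against 399 of 2277 (17.5%) for all genes with in-gene distal regions in both. Of genes listed with a rat distal region that did carry H3K4me3, 65 of 389 (16.7%) were listed with a mouse region of the 823, which lack H3K4me3 in controls. Of the 32 genes with at least 3 rat regions 26 had a mouse region, among them Kalrn (6 in each species), Ntrk2, the receptor for BDNF (4 in each), and Tcf4, a basic helix-loop-helix factor linked to intellectual disability (3 in each). Genes are not independent replicates, and the match is by gene name, not by aligned sequence.

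Acetylation was present in the exposed groups too. H3K9Ac intervals covered 824, 827 and 815 of the 849 regions in the VPA vehicle libraries and 830, 835 and 824 in the TAK-418 libraries. An interval was called in all 9 libraries for 770 regions (90.7%). All but 1 had an interval in at least 1 exposed library. The exception lay in Enox1, a gene of a cell surface oxidase, at 63444800 to 63448399 on chromosome 15.

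**Figure D2:**
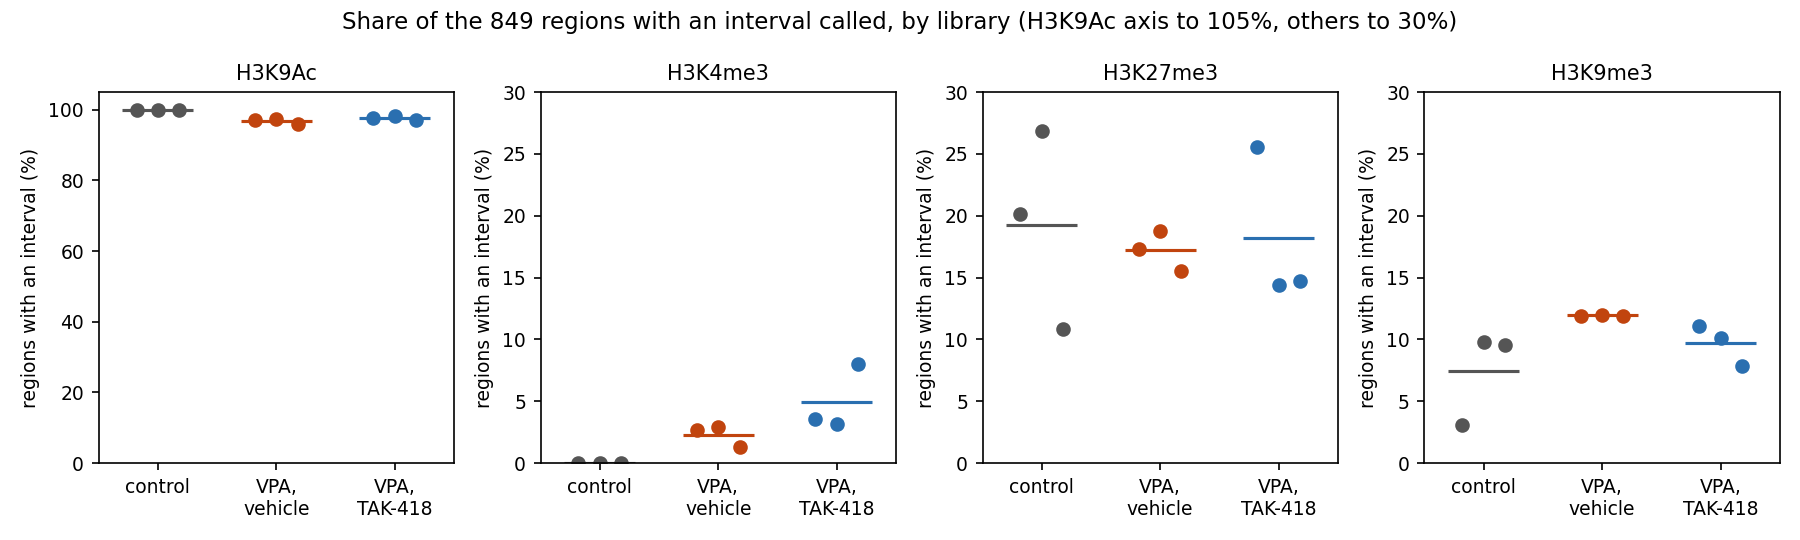
Each point is 1 library and gives the share of the 849 regions in which an interval was called, in %, for each mark and group; lines are group means. H3K9Ac covers 815 to 849 regions in every library and the 3 other marks 0 to 228, and the control values of H3K9Ac and H3K4me3 are fixed by how the regions were chosen.

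The level of H3K9Ac was higher in both exposed groups than in controls. The median over the 849 regions was 3.48, 2.92 and 3.20 in the control libraries, 6.89, 8.06 and 3.94 with VPA and vehicle, and 5.06, 5.44 and 4.02 with VPA and TAK-418. No exposed library fell within the control range. The mean over VPA vehicle libraries exceeded the control mean in 848 of 849 regions, with a median ratio of 1.99. It did so in 99.8% of all 17679 tested regions, with a median ratio of 1.93. The 3 libraries of each group did not overlap in 717 of the 849 (84.5%) and in 85.8% of all tested regions. For TAK-418 against control the mean was higher in 848 regions, where the background was 99.0%. The groups did not overlap in 773, where the background was 55.6%. After median centring the median difference over the 849 regions was -0.020 on the log2 scale for VPA vehicle and 0.092 for TAK-418 against control, where the deposited values gave 0.76 and 0.47. Just outside the choice, the median H3K9Ac of 569 distal regions with an interval in 2 of 3 controls was 2.81 (mean of 3 libraries), where the 849 had 3.20.

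**Figure D3:**
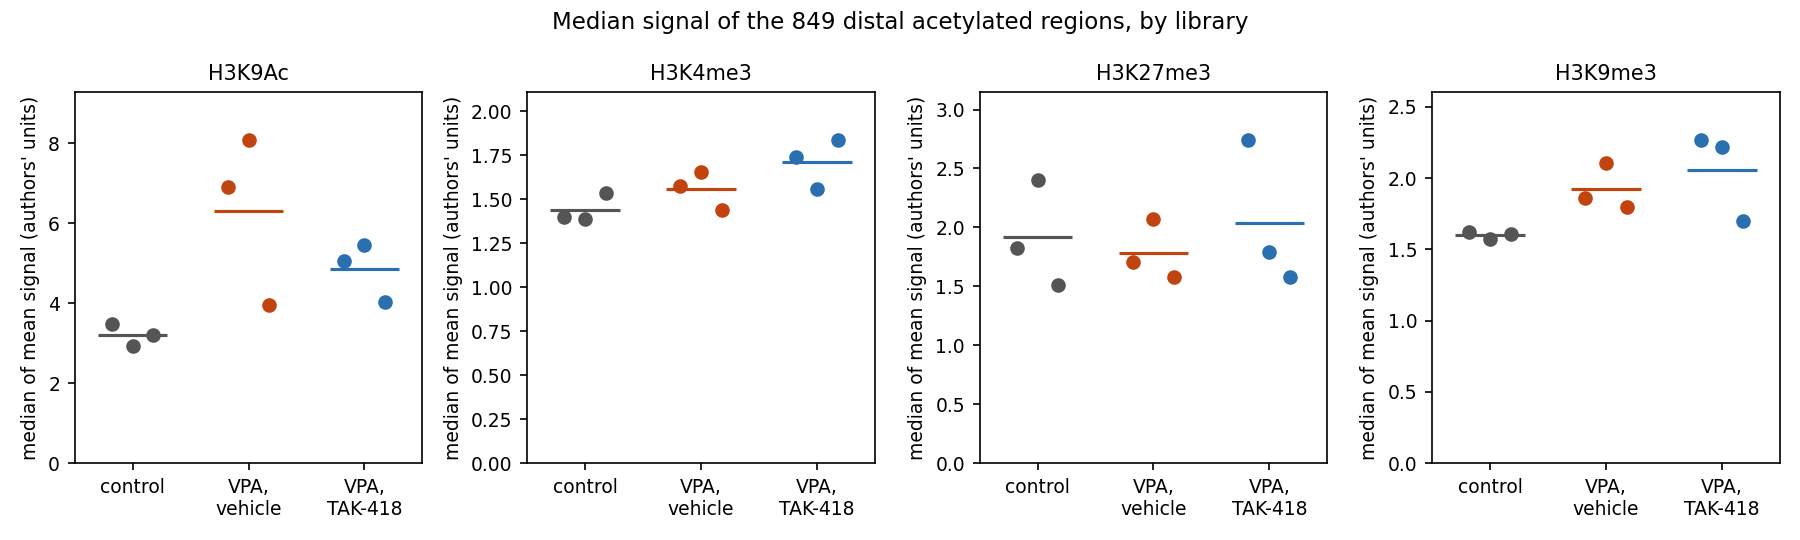
Each point is the median of the mean signal over the 849 regions in 1 library, in the authors' units, for each mark and group; lines are group means. H3K9Ac lies between 2.92 and 3.48 in controls and between 3.94 and 8.06 in the exposed libraries, while the 3 other marks lie between 1.38 and 2.74 in every library.

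The highest H3K9Ac among the 849, averaged over the 6 exposed libraries, belonged to a region in Gpr137c and Rcor2l1 (chromosome 15, 23573200 to 23574999). It had a signal of 10.6, 11.1 and 7.86 in controls, 32.1, 35.8 and 16.9 with vehicle and 16.1, 22.2 and 13.9 with TAK-418. In Mbp the values were 4.81, 3.85 and 4.31, then 10.2, 12.1 and 5.18, then 6.52, 8.20 and 5.69. In both regions every exposed library lay above every control, and the lowest vehicle library, replicate 3, lay below the highest TAK-418 library.

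The libraries compared for TAK-418 against vehicle among exposed rats did not enter the choice. The control libraries, which did, shared the limma fit and its estimate of spread. As deposited, the mean H3K9Ac was lower with TAK-418 in 810 of the 849 regions and in 16825 of all 17679 tested regions. The median ratio was 0.756 over the 849, against 0.703 over all tested regions. The median log2 difference was -0.30, where all tested regions had -0.41. The groups did not overlap in 1 region that was lower and 2 that were higher, against backgrounds of 17.2% and 0.305%. In limma 5 of the 849 regions were lower and 0 higher at an adjusted p under 0.05. Of all tested regions 9.56% were lower and 0.017% higher. An unadjusted p under 0.05 was found for 68 of the 849 and for 6661 of all 17679 tested regions. The number called at the adjusted threshold rested on single libraries. Without VPA vehicle replicate 3, 727 of the 849 were lower, as were 15644 regions in all. Without control replicate 1 or TAK-418 replicate 2 the number was 1 and 3, and without any of the other 6 libraries it was 0.

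The 5 regions that fell as deposited lay in Nrxn2, Ak1, Emid1 and Arhgef1 and downstream of Nes and Bcan. Nrxn2 encodes a presynaptic adhesion protein, and its region (chromosome 1, 228860000 to 228860799, 70937 bp from the gene start) was the shortest of all 849. Its H3K9Ac signal was 11.2, 8.48 and 9.73 in controls, 33.0, 32.0 and 19.7 with vehicle and 12.0, 20.0 and 13.9 with TAK-418. The exposed groups overlapped only at the lowest vehicle and the highest TAK-418 library, and limma gave -0.84 on the log2 scale (SE 0.26, adjusted p = 0.0277). After median centring Nrxn2 was at -0.44 (adjusted p = 0.0238) and after quantile normalization at -0.15 (adjusted p = 0.47).

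Ak1 encodes adenylate kinase, and its region (chromosome 3, 17000200 to 17001999) had 5.96, 5.09 and 6.14 in controls, 18.8, 22.5 and 8.79 with vehicle and 8.57, 10.2 and 7.23 with TAK-418 (log2 difference -0.79, SE 0.25, adjusted p = 0.0353). Nes encodes the intermediate filament nestin of neural progenitors and Bcan the proteoglycan brevican of perineuronal nets. The region downstream of both had 9.05, 5.90 and 8.94, then 23.5, 27.7 and 11.9, then 10.4, 15.0 and 9.54. In both regions the TAK-418 libraries lay below vehicle replicates 1 and 2 and overlapped replicate 3.

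Emid1, which encodes an extracellular matrix protein, was the 1 region of the 849 that was lower under both rescalings. It had 4.76, 4.07 and 3.97 in controls, 12.2, 13.4 and 6.04 with vehicle and 5.71, 6.45 and 4.90 with TAK-418 (chromosome 14, 86051200 to 86055399). The groups overlapped between 6.04 and 6.45. Limma gave -0.73 as deposited (adjusted p = 0.0456), -0.33 after median centring (adjusted p = 0.0113) and -0.32 after quantile normalization (adjusted p = 0.0402). Tle2, a corepressor of the Groucho family, and Eps8l2, an actin regulator, joined Nrxn2, Ak1, Emid1 and Arhgef1 among the 6 that were lower after centring.

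Relative to each library's median, more of the 849 regions were higher than lower with TAK-418. After median centring 215 were higher (25.3%; 13.7% of all tested regions) and 6 lower (0.707%; 17.8% of all). The rise was not particular to the 849. Among the 5533 distal regions tested 32.9% were higher after centring, and among distal regions with H3K9Ac in 2 of 3 controls 32.2%. After quantile normalization 25 were higher (2.94%; 2.69% of all) and 1 lower (0.118%; 1.3% of all), and all 26 passed under both, where 2.2% of all tested regions were higher and 1.17% lower under both. The share of 2.94% after quantile normalization was near that of all tested regions. It was 4.48% in tested distal regions, 13.2% in distal regions with H3K4me3 and 8.00% in acetylated promoters without a CpG island. The median difference over the 849 was 0.093 after centring, where all tested regions had -0.014. The count of 26 was 0 without VPA vehicle replicate 1, without vehicle replicate 2 or without TAK-418 replicate 1, and 14 without TAK-418 replicate 3, where 373 of all tested regions passed both. The count of 221 after centring was 97 without vehicle replicate 1 and 95 without TAK-418 replicate 1, where 2434 and 2323 of all tested regions were called.

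The difference followed the level of H3K9Ac. All tested regions were divided into 4 equal level groups by mean log2(signal + 1) of H3K9Ac over all 9 libraries, controls included. Of the 849, 769 fell in the lower 2. As deposited the median difference of the 849 was -0.19 in the lowest group, -0.32 in the next, -0.43 in the third and -0.60 in the highest, where 10 lay. Other tested regions had -0.23, -0.35, -0.49 and -0.63 in the same order. After centring 49.8% of the 849 regions in the lowest group were higher, against 29.8% of the others there, and in the next group 18.8% against 17.5%. In the third group 0 of 70 were higher, against 5.61% of the others, and in the highest 0 of 10, against 0.952%. The level groups rest on the libraries compared and on the controls that chose the 849, so the fall across them is a description. Distal regions with H3K4me3 had a median of -0.22, acetylated promoters without a CpG island -0.32 and acetylated CpG island promoters -0.54, and 34.8%, 21.4% and 1.21% of them were higher after centring.

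A ratio within each library does not depend on its scaling factor. The median H3K9Ac of the 849 regions was 44.6%, 44.8% and 47.4% of that of acetylated CpG island promoters in the 3 control libraries, 44.0%, 47.8% and 41.1% with vehicle, and 53.7%, 51.9% and 52.7% with TAK-418. All 3 TAK-418 libraries lay above all 6 others, and the vehicle libraries overlapped the controls. Against the median of distal regions with H3K4me3 the shares were 74.6%, 69.4% and 73.5%, then 88.1%, 91.4% and 77.7%, then 75.6%, 80.6% and 79.5%, and here TAK-418 overlapped vehicle.

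**Figure D4:**
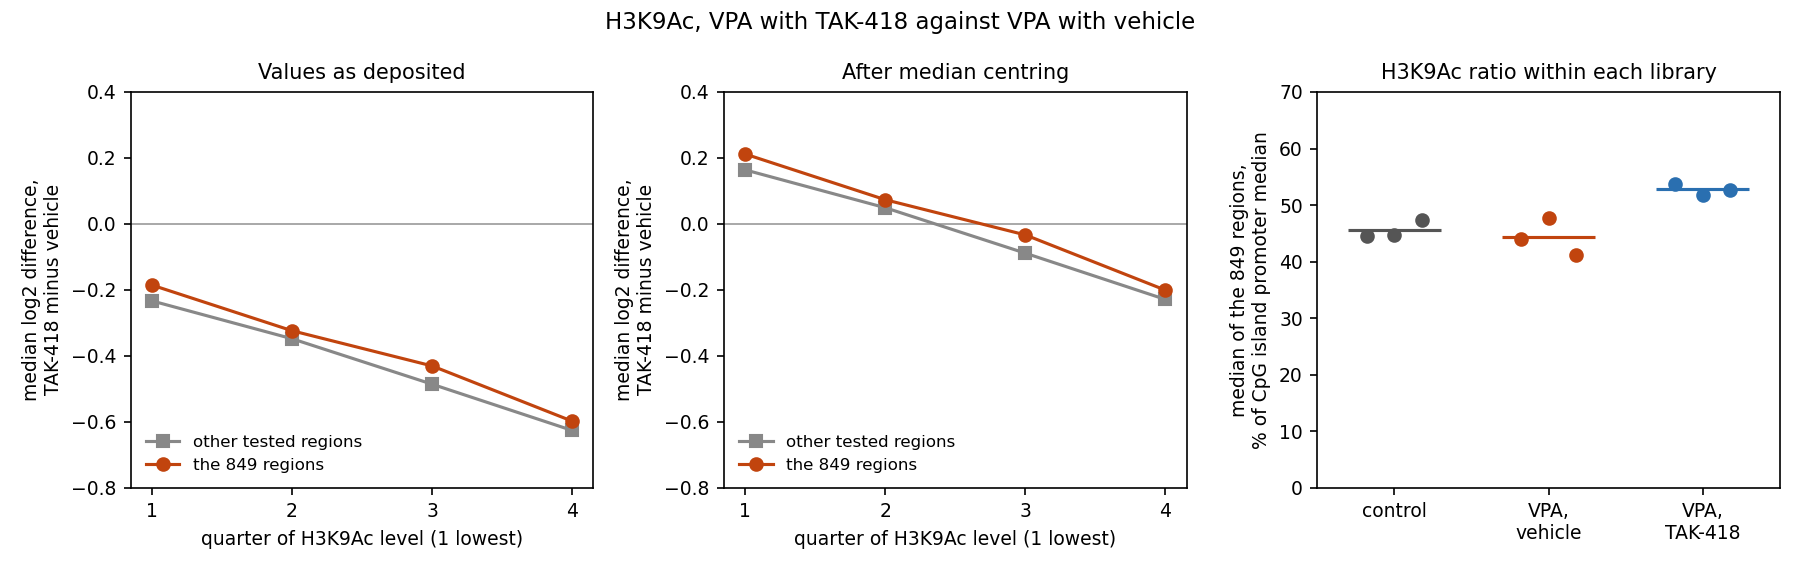
The left and middle panels give the median log2 difference in H3K9Ac, TAK-418 minus vehicle, in 4 groups of rising H3K9Ac level for the 849 regions (circles) and other tested regions (squares), as deposited and after median centring. The right panel gives, for each library, the median of the 849 regions in % of that of CpG island promoters, which lies between 51.9% and 53.7% with TAK-418 and between 41.1% and 47.8% in the other 6 libraries; lines are group means.

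Of the 25 regions higher under both rescalings, 20 were listed with a gene. Sdccag8, a centrosomal protein gene, had the largest increase after quantile normalization among those named by the rule. Its region (chromosome 13, 99428000 to 99431999) had 4.39, 3.17 and 3.51 in controls, 4.02, 4.61 and 3.54 with vehicle and 5.29, 5.78 and 4.79 with TAK-418. It was 1 of the 2 regions in which every TAK-418 library exceeded every vehicle library as deposited, with a difference of 0.71 after centring (adjusted p = 0.00454) and 0.53 after quantile normalization (SE 0.10, adjusted p = 0.0251). The region in Myo1d, an unconventional myosin gene, had no interval in any vehicle library and one in all 3 TAK-418 libraries, with signals of 3.61, 2.99 and 2.27 against 4.71, 4.17 and 3.52. Its controls, at 2.57, 2.56 and 2.69, overlapped the vehicle range.

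Tcf4 had 4.40, 3.97 and 3.75 in controls, 5.73, 6.71 and 4.47 with vehicle and 6.61, 6.84 and 4.88 with TAK-418 in 1 of its 3 regions (chromosome 18, 64569400 to 64577599). The exposed groups overlapped as deposited, and the difference was 0.50 after centring (adjusted p = 0.0048) and 0.41 after quantile normalization (adjusted p = 0.0281). Mef2c, a MADS-box factor of excitatory neurons, had 3.41, 2.97 and 3.40, then 4.35, 4.73 and 2.96, then 5.55, 5.21 and 4.28, with 0.67 after centring (adjusted p = 0.00297) and 0.49 after quantile normalization (adjusted p = 0.0162). Here 2 TAK-418 libraries exceeded every vehicle library. Msra, with 0.34 after quantile normalization (adjusted p = 0.021), and Sorbs2, an adaptor of the actin cytoskeleton, with 0.35 (adjusted p = 0.0367), had overlapping exposed groups as deposited.

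**Figure D5:**
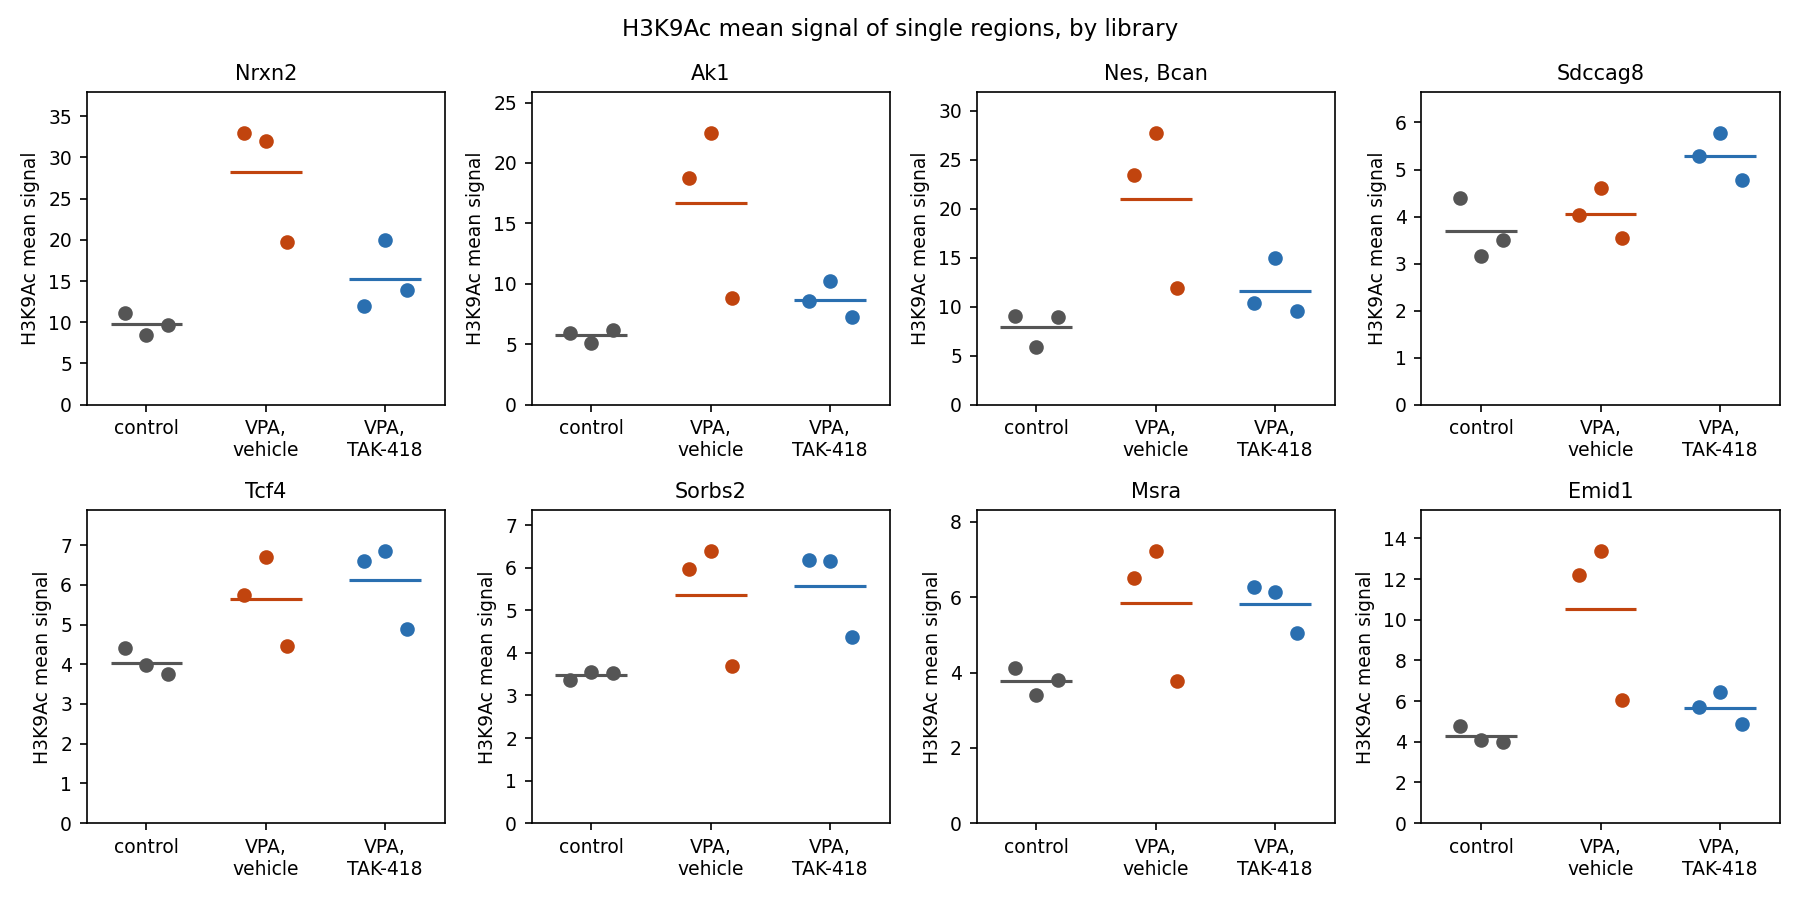
Each point is the H3K9Ac mean signal of 1 library, in the authors' units, in 8 single regions titled by their genes; lines are group means and each axis has its own scale. In Nrxn2, Ak1, Nes and Bcan, and Emid1 the vehicle libraries reach the highest values, and in Sdccag8 every TAK-418 library, from 4.79 to 5.78, lies above every vehicle library.

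Among the lists, the 6 regions of excitatory neuron markers had a median difference of -0.13 as deposited, where all 849 had -0.30, and 0.27 after centring, where all had 0.09. Of these 6 regions 4 were higher after centring (Cux1, Mef2c, Sv2b and Arpp21) and 2 after quantile normalization (Mef2c, and Sv2b, a synaptic vesicle protein, at 0.28). The 2 regions of Cux2 passed under neither. Of 8 regions of glutamate receptor genes 3 were higher after centring, all in Grin2b, and 0 after quantile normalization. Of 9 regions of voltage-gated channels 1 was higher after centring, in Kcnh1, and 0 after quantile normalization. The 5 regions of Gabbr2 passed in neither direction under any of the 3 scalings.

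H3K4me3 stayed low over the 849 regions. Its median was 1.40, 1.38 and 1.54 in controls, 1.58, 1.65 and 1.44 with vehicle and 1.74, 1.56 and 1.83 with TAK-418, and the exposed groups overlapped. In each library this was 17.7% to 21.8% of the median of distal regions with H3K4me3. The 90 distal regions with an interval in 1 of 3 controls, just outside the choice, had a control H3K4me3 of 2.11, where the 849 had 1.44. Intervals appeared in 23, 25 and 11 of the 849 regions with vehicle and in 30, 27 and 68 with TAK-418, where the highest, replicate 3, stood apart from the other two. In all, 97 of the 849 regions (11.4%) had an interval in at least 1 exposed library. Of the 569 distal regions with H3K9Ac in 2 of 3 controls, 55 did. Among the 849, 24 had one in at least 3 exposed libraries and 1 in all 6. That last region lay in Arhgef1, a guanine nucleotide exchange factor gene, at 83033800 to 83043199 on chromosome 1.

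Only those 24 regions passed the filter for H3K4me3, which asked for an interval in 3 of 9 libraries. The choice allowed no control interval, so all 24 passed through intervals in the exposed libraries that are compared here. The filter therefore used the values tested, and no conclusion about the 24 is drawn. For TAK-418 against vehicle 0 of the 24 passed limma at an adjusted p under 0.05, where 0.224% of 14296 tested regions did. An unadjusted p under 0.05 was found for 4 of the 24 and for 1083 of all tested regions. The median difference of the 24 was 0.20, as over all tested regions. The smallest p belonged to a region in Bcr, with 3.08, 2.10 and 2.72 with vehicle and 3.73, 2.98 and 4.58 with TAK-418. These overlapped, with a difference of 0.39 (SE 0.15, adjusted p = 0.366). After median centring the median over all 849 was -0.13, where the deposited values gave 0.08.

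The Polycomb mark lay over a part of these regions. H3K27me3 intervals covered 171, 228 and 92 of the 849 in controls, 147, 159 and 132 with vehicle and 217, 122 and 125 with TAK-418. There was none in any library for 592 regions (69.7%), and 83 (9.78%) had one in all 9. The share with one in all 9 was similar in distal regions with H3K4me3, at 8.73%. It was 5.53% for all distal regions, 15.7% for acetylated promoters without a CpG island and 26.0% for acetylated CpG island promoters. Those 83 were longer, with a median of 28199 bp, and 42.2% of them had no gene listed. A mean over a long region does not tell whether both marks lay on the same stretch. Tle2 had the highest H3K27me3, 19.0, 22.2 and 7.34 in controls, 16.0, 22.0 and 13.0 with vehicle and 27.8, 12.3 and 13.1 with TAK-418. Next came the 2 regions of Cux2, another upper-layer homeodomain gene: the one at 42053200 to 42060399 on chromosome 12 had 9.95, 13.6 and 4.55, then 7.96, 11.2 and 6.12, then 16.4, 6.82 and 6.95. In Tle2 and in this Cux2 region control replicate 3 was low, TAK-418 replicate 1 was high and the groups overlapped.

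Of the 849 regions 178 had an H3K27me3 interval in at least 3 of 9 libraries and were tested. In each of the 3 comparisons 0 of them passed limma, as did 0 of all 15480 tested regions. At an unadjusted p under 0.05 there were 0 of the 178 in each comparison. Of all tested regions there were 4 for vehicle against control, 2 for TAK-418 against vehicle and 11 for TAK-418 against control. The median difference was -0.02 for vehicle against control, 0.13 for TAK-418 against vehicle and 0.10 for TAK-418 against control, where all tested regions had 0.05, 0.11 and 0.15. After median centring 9, 0 and 9 of the 178 had an unadjusted p under 0.05 in these 3 comparisons, and 0 passed. Of all 15480 tested regions 857, 526 and 1424 had one. The smallest p for vehicle against control belonged to a region in Zak, a stress-activated kinase gene, with 2.98, 2.78 and 2.04 in controls and 4.14, 3.89 and 3.02 with vehicle, a difference of 0.38 (adjusted p = 1). It was the 1 region of the 178 in which those groups did not overlap, against a background of 1.11%.

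H3K9me3 was low and, as deposited, higher with exposure in nearly all of the 849 regions. The median over the 849 was 1.62, 1.57 and 1.61 in controls, 1.86, 2.10 and 1.80 with vehicle and 2.26, 2.22 and 1.70 with TAK-418. Every exposed library lay above every control. The group mean exceeded the control mean in 831 of the 849 regions with vehicle and in 847 with TAK-418. Over all 26084 regions tested for H3K9me3 it did so in 99.9% and 99.4%, so this was not particular to the 849. Intervals were called in no library for 688 regions, in all 9 for 19 (2.24%), and in at least 3 for the 100 that were tested. In all 9 the share was 1.65% for distal regions with H3K4me3 and 6.97% for all distal regions. In controls intervals covered 26, 83 and 81 of the 849. The numbers were 101, 102 and 101 with vehicle and 94, 86 and 67 with TAK-418. Regions could therefore pass the filter through exposed libraries in which they were high. Counts of the 100 against control are a description, and no conclusion is drawn from them. Among the 100 tested, the groups did not overlap in 95 for vehicle against control and in 70 for TAK-418 against control. Over all tested regions these shares were 83.7% and 65.9%. By limma 10 of the 100 were called higher with vehicle than in controls and 10 with TAK-418 than in controls. Over all 26084 tested regions the shares called higher were 56.2% and 39.5% (0.00383% were lower with TAK-418 than in controls). Between TAK-418 and vehicle 0 of the 100 were called, as were 0 of all 26084 tested regions. At an unadjusted p under 0.05 there were 0 of the 100 and 128 of all tested regions. The 2 comparisons with control share the control libraries. After median centring or quantile normalization 0 of the 100 passed in either, and the medians of the 100, 0.33 in each as deposited, became -0.16 and -0.15 after centring. Counts for vehicle against control were 0 without any single control library or without vehicle replicate 1 or 2, and 81 without TAK-418 replicate 1, which only shares the fit, where 23439 of all 26084 tested regions were called. For TAK-418 against control they were 0 without any single control library, without vehicle replicate 1 or without TAK-418 replicate 1, 1 without vehicle replicate 3, 6 without TAK-418 replicate 2 and 52 without TAK-418 replicate 3 (of all tested regions 4751, 11926 and 17548 in the last 3).

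Atp2b2, a plasma membrane calcium pump, was among the regions called in both comparisons with control. Its region (chromosome 4, 209184200 to 209226599) had 2.00, 2.70 and 2.58 in controls, 3.74, 4.67 and 3.64 with vehicle and 5.17, 3.77 and 3.15 with TAK-418, so that neither exposed group overlapped the controls. The differences were 0.55 (SE 0.23, adjusted p = 0.0387) and 0.54 (adjusted p = 0.0483). Igsf11, a synaptic adhesion molecule, had 1.87, 1.60 and 1.58, then 2.37, 2.89 and 2.37, then 3.12, 2.60 and 2.27, with differences of 0.40 (adjusted p = 0.035) and 0.44 (adjusted p = 0.0331). The highest H3K9me3 of the 849, listed with no gene, had 2.60, 3.90 and 3.69 in controls, 6.30, 7.76 and 5.17 with vehicle and 7.44, 4.64 and 5.03 with TAK-418 (chromosome 8, 67681200 to 67691999). In this region too both exposed groups lay above the controls, and vehicle passed (0.75, adjusted p = 0.0305) while TAK-418 did not (0.60, adjusted p = 0.0664). The difference between TAK-418 and vehicle there was -0.15 (adjusted p = 1).

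Of the 849 regions 458 (53.9%) had no interval of H3K4me3, H3K27me3 or H3K9me3 in any library of the 3 groups. They had a median length of 14999 bp, and 17.7% of them had no gene listed. Their median H3K9Ac over the exposed libraries was 5.55, where all 849 had 5.56.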

How the data were processed

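Chromatin of rat cortex was immunoprecipitated for 4 marks in 3 groups of 3 libraries each. Reads were aligned with BWA 0.7.12 to rn5, per the submitters' processing notes. Which peak caller, bin width and library scaling the authors used is not given in the sources used here. The deposited values, per the file headers, were the mean and the highest signal of every library in each merged region, and a call of 1 or 0 for an interval there. The mean signal was 0 or at least 1. Without counts there is no depth, and no counting error is given. Columns were matched to samples by name (0 unmatched). Coordinates are those of the table, on rn5.

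Members, gene lists and tests were chosen with earlier results of these data known. Per mark, regions with an interval in at least 3 of 9 libraries were fitted with limma 3.58.1 (R 4.3.3; mean-dependent prior, robust) on log2(mean signal + 1), 1 model over 9 libraries, with Benjamini-Hochberg adjustment over all regions tested in a comparison at 0.05. A difference is on the log2(signal + 1) scale, which understates changes of low regions. On simulated H3K9Ac values for TAK-418 against vehicle (17679 regions) the fit recovered 95 of 100 regions changed by a log2 value of 1 and 100 of 100 changed by 2, with 8 false calls. The simulated spread was that left after median centring, drawn independently for each region, without the shifts between whole libraries. The recovery therefore does not describe the fit to values as deposited. Tables were read with pandas 2.3.3 and drawn with matplotlib 3.10.9.

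Alternatives were median centring, quantile normalization, a pseudocount of 0.5, no interval filter, an interval in at least 6 of 9 libraries, the highest signal, only the 6 libraries compared, the replicate number as a block, and leaving out each library. Fits that left out libraries or added the block after rescaling, and the alternatives for the described control comparisons, were chosen after seeing the data. Named regions are, per comparison and scaling, up to 6 with the largest change in each direction among those called, without overlap between groups and in the upper 75% by level (otherwise the 3 with the smallest p), the regions with the highest signal of each mark, the 2 highest of each gene list, the 3 longest, and the 3 genes with the most regions. Other genes and regions are named because a count of them is small; they were chosen after their values were seen. Unnamed gene models were passed over, and results of some named genes are not reported here.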

Additional observations from a re-analysis of the deposited data

How the results depend on the processing

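For H3K9Ac with TAK-418 against vehicle, the 5 regions called as deposited became 221 after median centring, 26 after quantile normalization, 0 without the interval filter, 8 of 841 with an interval in at least 6 of 9 libraries, 25 with the highest signal and 0 with only the 6 libraries compared. Over all tested regions these 6 fits called 5569, 704, 0, 2058 of 14971, 7676 and 42, of 17679 where not stated and of 72824 without the filter. Leaving out single libraries gave 0 to 727. After median centring that range was 95 to 227, and after quantile normalization, or both rescalings, 0 to 28. The median difference turned from -0.30 to 0.093 after median centring. For H3K9me3 the 10 regions called for vehicle against control became 0 after either rescaling, 1 without the filter, 33 of 72 with the stricter one, 18 with the highest signal and 74 with only the 6 libraries (range without single libraries 0 to 81). The last 4 fits called 829 of 72824, 10763 of 15320, 8039 of 26084 and 22703 of 26084 regions in all. The 10 for TAK-418 against control became 0 after either rescaling, 2, 18, 4 and 0 under the same 4 settings (range 0 to 52), which called 1225, 6801, 4408 and 437 regions in all. The cause of these shifts was not tested. Counts of 0 for H3K27me3 in 3 comparisons, and for H3K4me3 and H3K9me3 with TAK-418 against vehicle, were 0 under every alternative run.

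The described median differences against control moved with scaling. For H3K9Ac, vehicle against control went from 0.76 to -0.020 after median centring and 0.073 after quantile normalization, and TAK-418 against control from 0.47 to 0.092 and 0.064. For H3K4me3, vehicle against control went from 0.07 to -0.33 after centring and 0.17 with the highest signal. TAK-418 against control went from 0.15 to -0.46 after centring, 0.041 after quantile normalization and 0.41 with the highest signal, and TAK-418 against vehicle from 0.08 to -0.13 after centring. With H3K9Ac intervals asked in 2 of 3 controls, 1418 regions would have been chosen.

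Pairing by replicate number is not given in the labels and was not seen in the values. Of 36 pairs of same-numbered libraries 11 had deviations correlated above 0.1 (r from -0.514 to 0.274). Of 12 comparisons 0 had all pairs above it. Deviations were taken from means of 3 libraries, so weak correlations cannot show that the samples were unpaired. With the replicate block, 54 of the 849 regions were lower in H3K9Ac for TAK-418 against vehicle (6586 of 17679 tested regions were called), 9 were called after quantile normalization or both rescalings (219 and 206 of all), and 0 were called in H3K9me3 for either comparison with control (256 and 144 of 26084). Read depth is unknown, so how far it limits weak regions was not tested.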

Other observations

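Among the regions with an H3K27me3 interval in all 9 libraries were both regions of the vascular list, in Vwf and downstream of Erg, and 3 of the 6 of the excitatory neuron list, in Cux1 and Cux2. Vwf, at 225105800 to 225187999 on chromosome 4, had an H3K27me3 signal of 5.75, 6.81 and 3.13 in controls, 5.00, 6.65 and 3.94 with vehicle and 9.99, 4.20 and 4.24 with TAK-418, with overlap between all groups. Its H3K9Ac was 2.46, 2.12 and 2.43 in controls, 4.75, 5.49 and 2.81 with vehicle and 3.28, 3.71 and 2.66 with TAK-418. Regions in Fli1 and Ets1, ETS-family factors of endothelial and blood cells that were picked after their values were seen, also had H3K27me3 intervals in all 9 libraries, with H3K27me3 signals of 2.82 to 8.38 and 3.16 to 8.89. Which cells of the cortex carried each mark was not tested. The 1 region of the astrocyte list and the 3 regions of the synaptic vesicle list had no H3K27me3 interval in any library. The same held for 592 of all 849 regions (69.7%), so no contrast between lists is drawn from so few regions.

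Among the regions with an H3K9me3 interval in all 9 libraries, 6 were listed with genes: Ntrk2, Atp2b2, Syn3, Mtss1, Ralgps1, and Map6 together with Serpinh1. Of these, Ntrk2 and Syn3 each had further regions among the 849, 4 and 3 in all, and in mouse cortex 4 and 2 under the same rule.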
